A study of Oryza sativa with 12 samples.

Results

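The genes described here are 49 rice loci whose transcripts stood high in culms of both single mutants of TAC4 and TAC4L and near or below the wild-type level in the double mutant. They were chosen from the group means of FPKM (fragments per kilobase of transcript, scaled to the number of mapped fragments): a mean in each single mutant of at least 3 times the WT mean and at least 5 FPKM, and a double-mutant mean of at most 1.5 times the WT mean. Of 55986 genes listed, 50 met these limits, and 1 of them was left out by the rule. The values of all 12 libraries chose the genes, so the differences of each mutant from WT, and of the double mutant from the single mutants, are given as descriptions with no test.

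The libraries came from culms, the jointed stems of rice, of the japonica cultivar Zhonghua 11 at the heading stage, with 3 libraries for each of 4 groups. Besides the wild type (WT) there were mutants labelled TAC4L-KO, TAC4-KO and TAC4L/TAC4-KO (called double-KO here), with no other treatment or allele named. The titles call the lines knockouts and the genotype field calls them knockdowns, and the labels give no edit, number of independent lines or promoter. The labels do not say whether replicates came from different plants. A p-value here reflects the spread among these libraries and no more, and that spread may be technical.

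TAC4 is known for its part in setting tiller angle, the angle at which side shoots leave the main shoot. The series title concerns a brittle culm in the double mutant. The strength of a rice culm rests on the secondary walls of its fibre and vessel cells, which are laid down after a cell has stopped growing and are built of cellulose, xylan and lignin. When related genes can stand in for each other, losing either one usually changes little and losing both changes much. The 49 loci were chosen for another arrangement, with a high mean in each single mutant and a mean of at most 1.5 times WT in the double mutant.

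The identifiers carry no gene names, and none of the 55986 was found in the reference table used here. The 49 loci are therefore given by identifier only, with no function. None of them was among the 120 genes of 14 lists of wall, metabolism, stress and marker genes paired with loci from published rice nomenclature. For 61 of those 120 genes the reference placed the symbol on the chromosome that the identifier states. List genes given by symbol with values below are of this kind. The labels name TAC4 and TAC4L, but the loci given for them come from published nomenclature and were not placed by the reference. The light-harvesting and Rubisco genes, apart from 1 of each kind, are given only as a list, with names from published nomenclature. The light-harvesting gene given by locus was not placed by the reference.

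Read depth was uneven. Depth relative to TAC4-KO replicate 1, read from the steps in the lowest FPKM values, ran from 0.572 in WT replicate 1 to 1.47 in double-KO replicate 2, a range of 2.58-fold. The number of fragments behind a value was not recovered. Between 24717 and 26972 genes were above 0 in a library, and 0 of 66 pairs of libraries held identical values. TAC4 (LOC_Os02g25230) stood at 4.75 to 7.32 FPKM in WT, 8.22 to 9.83 in TAC4L-KO, 9.13 to 13.5 in TAC4-KO, with 13.2 to 16.5 in double-KO. TAC4L (LOC_Os04g19140) stood at 0.282 to 0.883 FPKM over all 12 libraries. Neither level checks a coding change. If its locus is rightly paired, the level of TAC4 goes against the word knockdown, while the low level of TAC4L leaned the other way. The groups are named by their labels throughout.

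The 49 loci were moderately expressed. The median member had a mean of 4.7 FPKM in WT, 17.8 in the libraries labelled TAC4L-KO, 21.2 in those labelled TAC4-KO and 2.59 in those labelled double-KO. The ratio to the WT mean had a median over members of 4.11 for TAC4L-KO (range 3.02 to 108), of 4.59 for TAC4-KO (3.06 to 271) and of 0.709 for double-KO (0 to 1.49). A ratio of at least 5 was reached by 15 members in TAC4L-KO and by 17 in TAC4-KO. In bulk tissue, fewer cells of a type and less RNA per cell cannot be told apart.

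**Figure D1:**
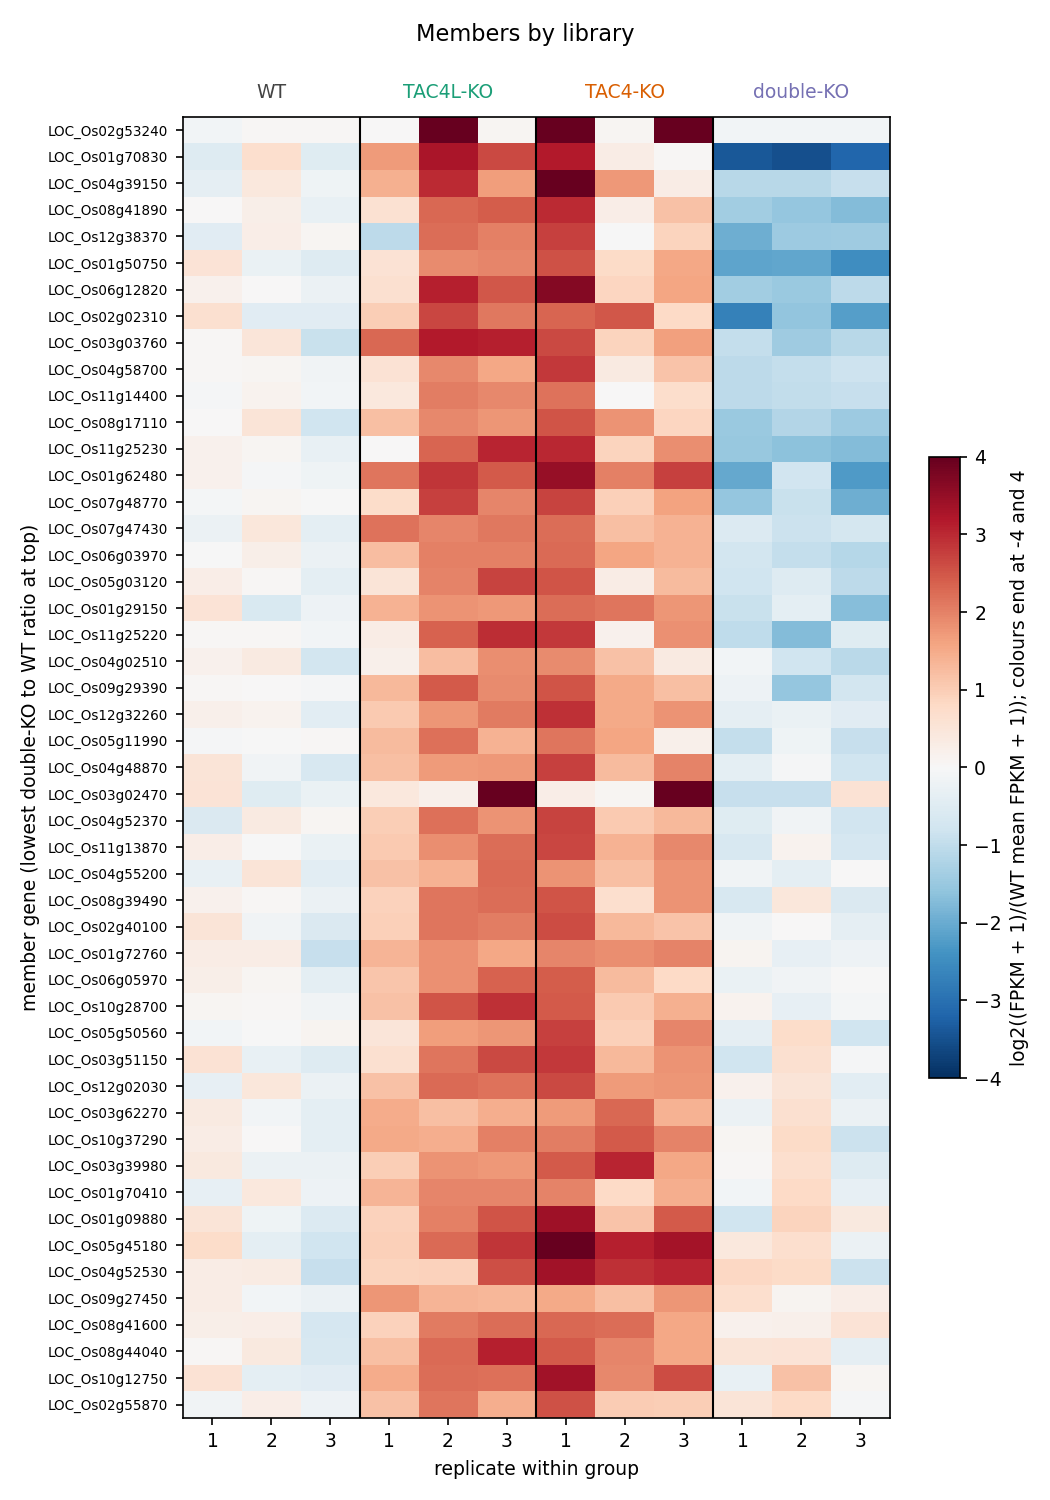
Level of each of the 49 members (rows, from the lowest to the highest double-KO to WT ratio) in each of the 12 libraries (columns, by group and replicate), as log2((FPKM + 1)/(WT mean FPKM + 1)). Red is above and blue below the WT mean. The 2 middle blocks are red for nearly every row, palest in TAC4L-KO replicate 1, and the double-KO block runs from blue at the top to near white at the bottom.

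Most members were separated from WT library by library, though not all. Every TAC4L-KO library lay above every WT library in 44 of 49 members, where the same held for 19.1% of the 19184 genes that averaged 1 FPKM or more across the 12 libraries. In TAC4-KO the count was also 44, against 25.2% of those genes. Both held together in 41 members. Every single-mutant library lay above every double-KO library in 46 members (20.4% of all genes), the exceptions being LOC_Os03g02470, LOC_Os03g51150 and LOC_Os05g50560. The rule used these contrasts, and nothing is read from the counts. All 49 members passed the filter of a mean of 1 FPKM, as the rule itself requires.

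The most abundant member was LOC_Os01g09880. It stood at 99.8, 61.8 and 47.2 FPKM in WT replicates 1 to 3, at 134, 285 and 402 in TAC4L-KO, at 733, 154 and 388 in TAC4-KO, with 39.6, 129 and 92.5 in double-KO. The single-mutant libraries all lay above WT, but within each single mutant the highest library was about 3 to 5 times the lowest, and double-KO overlapped WT. LOC_Os12g02030 was tighter, at 12.6, 22.2 and 13.6 FPKM in WT, 37.5, 80.6 and 75.7 in TAC4L-KO, 106, 55.2 and 56.7 in TAC4-KO, with 18.3, 23.3 and 11.9 in double-KO. Its 6 single-mutant libraries lay above all 6 others, and WT and double-KO covered the same range.

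The other abundant loci followed the same outline at 60 to 70 FPKM. LOC_Os08g39490 averaged 17.9 ± 2.67 FPKM in WT, 68 ± 28.9 in TAC4L-KO, 66.9 ± 39.2 in TAC4-KO, with 15.8 ± 7.75 in double-KO (SD, n = 3 each). LOC_Os03g51150 averaged 14.3, 61.5, 65.8 and 14.9 FPKM and LOC_Os02g40100 averaged 17.1, 62.6, 64.4 and 15.3 FPKM in the same order of groups. For these loci the double-KO mean lay within 1 SD of the WT mean. LOC_Os04g52530 differed, with 91.1 ± 67.4 FPKM in TAC4L-KO and 246 ± 40.2 in TAC4-KO over 27.2 ± 11.6 in WT. TAC4L-KO replicate 3 stood at 169 FPKM, beside 51.5 and 52.9 in the other TAC4L-KO libraries.

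The double mutant did not treat the members alike, since the rule sets an upper limit for it and no lower one. In 22 members the double-KO mean was at most 0.5 times the WT mean, in 12 it lay between that and the WT mean, and in 15 it lay above the WT mean. Every double-KO library lay below every WT library in 20 members, and in 30.6% of all genes. By group means these members were highest in the single mutants, which the rule fixes, and lowest in double-KO. Nothing is read from their count. Some of them overlapped WT in a single mutant, such as LOC_Os12g38370, at 1.02 FPKM in TAC4L-KO replicate 1 beside 2.07 to 4.06 in WT.

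At the low end stood LOC_Os01g70830, whose WT libraries had 7.79, 18.8 and 8.07 FPKM and whose double-KO libraries had 0.192, 0.088 and 0.384, a ratio of means of 0.0191. In the single mutants it stood at 40.2, 119 and 78 FPKM in TAC4L-KO and at 111, 14.6 and 12 in TAC4-KO, where replicates 2 and 3 overlapped WT. LOC_Os04g39150 was also nearly lost from double-KO, listed at 0, 0 and 0.146 FPKM, against 0.693, 1.89 and 0.914 in WT. Its single-mutant levels were 4.78, 16.1 and 5.94 in TAC4L-KO and 38, 6.14 and 1.67 in TAC4-KO, the last below the highest WT library. LOC_Os06g12820 had WT values of 2.56, 2.21 and 1.71 FPKM and double-KO values of 0.208, 0.127 and 0.518, with 3.95, 26.5 and 16.8 in TAC4L-KO and 39.1, 4.77 and 8.35 in TAC4-KO. Here the 4 groups did not overlap except for the 2 single mutants with each other.

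LOC_Os01g62480 joined a low double-KO level to a high level in every single-mutant library. It stood at 9.82, 8.25 and 7.44 FPKM in WT, 40.8, 67.6 and 50.9 in TAC4L-KO, 106, 37.7 and 62.8 in TAC4-KO, with 1.28, 4.57 and 0.966 in double-KO. Every single-mutant library was at least 37 FPKM and every double-KO library under 5 FPKM. LOC_Os02g02310 had WT and double-KO means of 8.41 ± 4.45 and 1.23 ± 0.872 FPKM, below 38.6 ± 20.5 in TAC4L-KO and 37.5 ± 19.5 in TAC4-KO (SD, n = 3 each). LOC_Os03g03760, with means of 1.94 ± 1.28 FPKM for WT and 0.323 ± 0.21 for double-KO, stood higher in TAC4L-KO (21.2 ± 6.83) than in TAC4-KO (10 ± 6.73).

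At the other end, some members had a double-KO mean above WT. LOC_Os05g45180 had a TAC4-KO ratio of 15.1, the largest after LOC_Os02g53240 and LOC_Os03g02470, with 3.97 ± 2.89 FPKM in WT, 22 ± 13.2 in TAC4L-KO, 60 ± 25.7 in TAC4-KO, with 5.28 ± 1.92 in double-KO (SD, n = 3 each). LOC_Os08g44040 averaged 1.13 ± 0.732 FPKM in WT, 10.3 ± 6.87 in TAC4L-KO, 7.74 ± 2.76 in TAC4-KO, with 1.61 ± 0.806 in double-KO. LOC_Os12g32260, low throughout and with a double-KO mean below WT, averaged 0.986, 5.4, 8.22 and 0.548 FPKM in the same order of groups. In LOC_Os05g45180 and LOC_Os08g44040 the WT and double-KO libraries overlapped, and in LOC_Os12g32260 the lowest WT library (0.496 FPKM) lay among the double-KO values of 0.45 to 0.642.

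**Figure D2:**
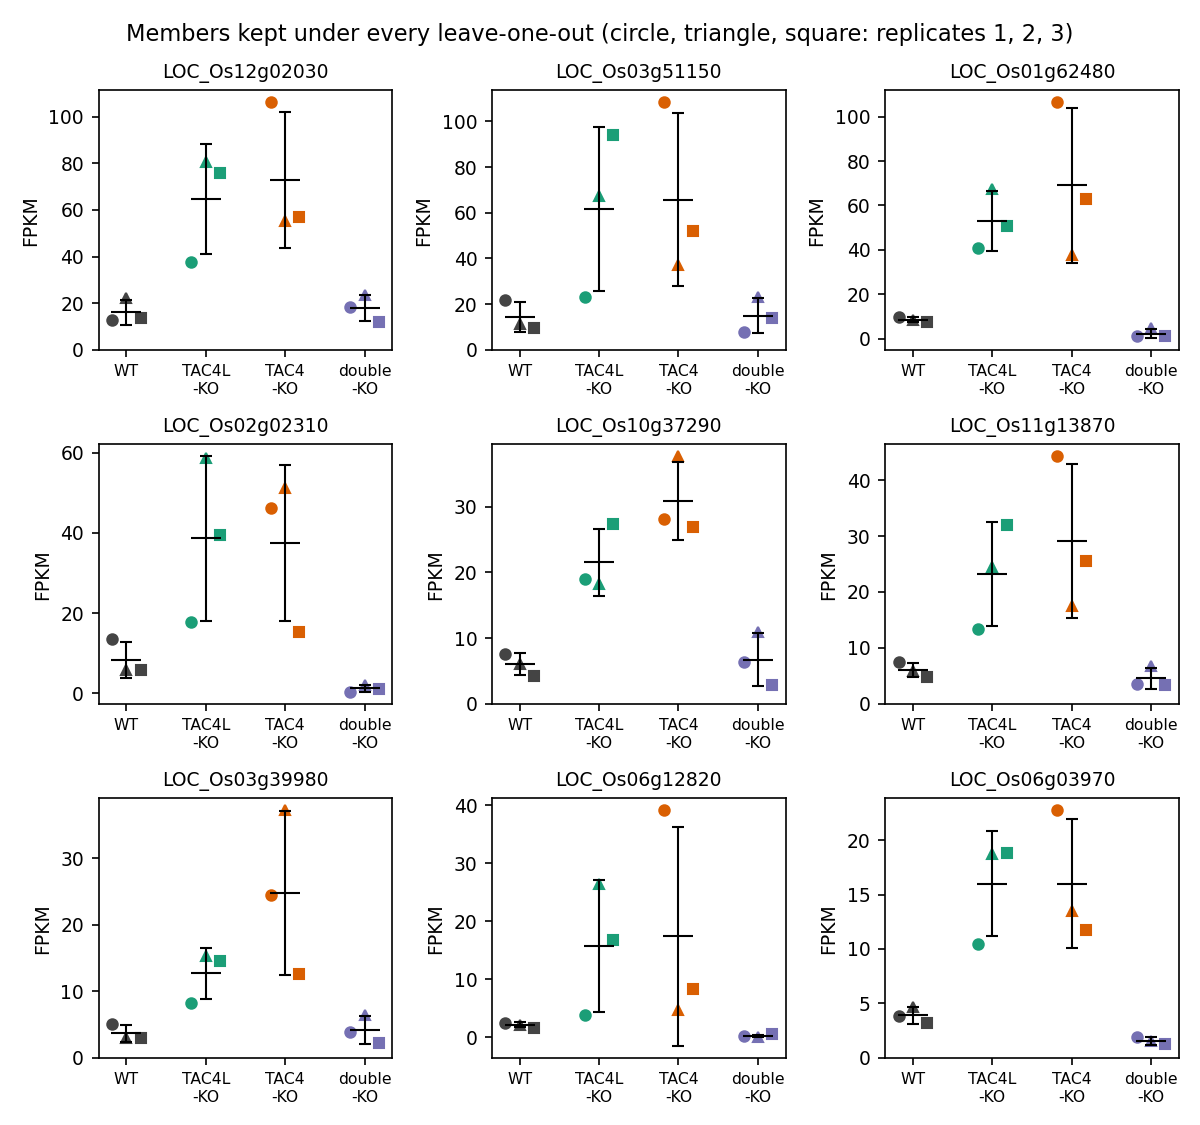
FPKM by library for 9 of the 13 members that met the rule whichever library was left out (symbols, replicates 1 to 3; black bars, mean and SD, n = 3 per group; linear axes from 0 or just below). In each panel the TAC4L-KO and TAC4-KO means stand at least 3 times above WT, and TAC4L-KO replicate 1 (circle) is the lowest or near the lowest of its group, as at 23 FPKM beside 67.3 and 94.3 for LOC_Os03g51150.

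A pair of members was high in only some libraries of each single mutant and low in the others. LOC_Os03g02470 stood at 351 FPKM in TAC4L-KO replicate 3 and 814 in TAC4-KO replicate 3, and at 0.0955 to 2.15 FPKM in the other 10 libraries. LOC_Os02g53240 stood at 20.7 FPKM in TAC4L-KO replicate 2 and at 27.2 and 35.4 in TAC4-KO replicates 1 and 3. It was at most 0.142 FPKM in the other 9 libraries and listed at 0 in all 3 double-KO libraries. The largest ratios to WT, 108 and 249 for the first and 90.4 and 271 for the second, are those of these loci. LOC_Os03g02470 no longer met the rule without either of its high libraries, and LOC_Os02g53240 without TAC4L-KO replicate 2.

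**Figure D3:**
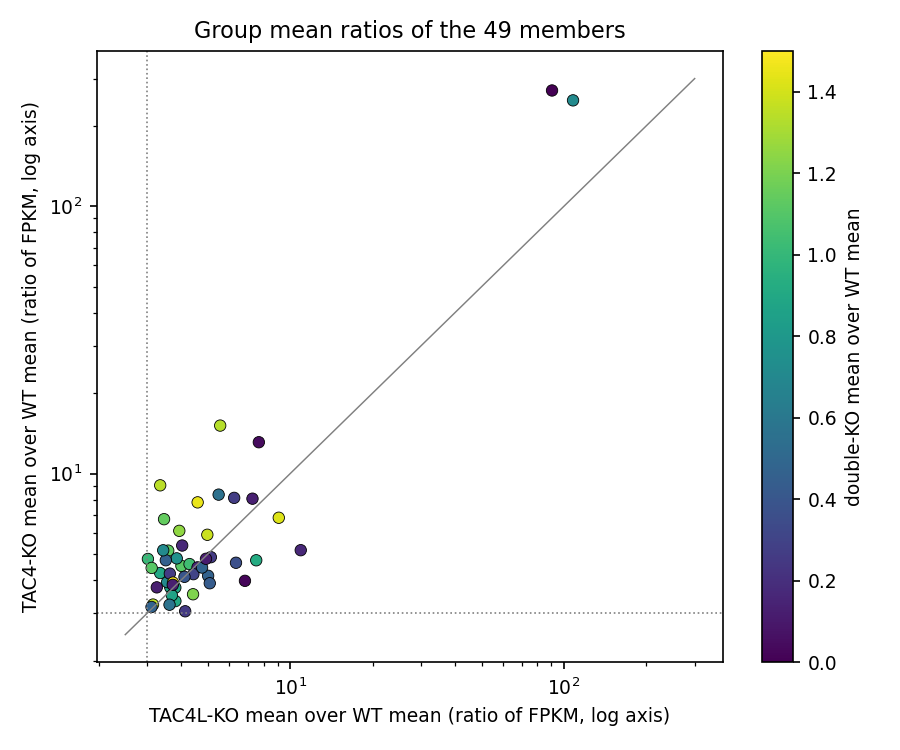
Ratio of the TAC4L-KO mean to the WT mean (x axis) against the ratio of the TAC4-KO mean to the WT mean (y axis) for the 49 members, both on log axes, coloured by the ratio of the double-KO mean to the WT mean. Dotted lines mark the limit of 3 and the solid line equal ratios. Most members lie between 3 and 10 on both axes, and the pair of loci high in only some libraries of each single mutant lies at the upper right.

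The rule's limits cut through a continuum. The members just inside the limit of 3 for the smaller of the 2 single-mutant ratios were LOC_Os05g50560, LOC_Os11g14400 and LOC_Os04g02510, at 3.02, 3.06 and 3.12. Just outside lay LOC_Os03g64230, LOC_Os02g51370 and LOC_Os06g30950, at 3.0, 2.97 and 2.97. For the double-KO limit of 1.5, LOC_Os02g55870, LOC_Os10g12750 and LOC_Os08g44040 lay inside at 1.49, 1.45 and 1.42, and LOC_Os11g47330, LOC_Os07g05450 and LOC_Os07g13770 outside at 1.53, 1.57 and 1.58. For the minimum of 5 FPKM, LOC_Os12g32260, LOC_Os04g58700 and LOC_Os04g02510 lay inside at 5.4, 5.43 and 5.72 FPKM, and LOC_Os05g06110, LOC_Os12g08720 and LOC_Os07g13780 outside at 4.98, 4.81 and 3.43. Without the left-out locus, 157 genes were at least 3 times WT and at least 5 FPKM in both single mutants. Of these, 68 were also at least 3 times WT in double-KO and 40 lay between 1.5 and 3 times.

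The rule did not compare the single mutants with each other, but by asking for a high mean in both it leaves out genes high in 1 of them, which limits how far members can differ in this contrast. No member was called different between them, and nothing is read from that count. The TAC4-KO mean was the higher in 31 members and the TAC4L-KO mean in 18. In limma on log2(FPKM + 1), over the 19184 genes, 0 of 49 members were called at an adjusted p under 0.05 where 3.04% of all genes were (1.68% higher and 1.37% lower in TAC4-KO), and 3 members had an unadjusted p under 0.05 (6.12%, beside 21.5% of all genes). The members' median log2 difference (TAC4-KO minus TAC4L-KO) was 0.04, beside -0.09 for all genes, and their median SE was 0.44, beside 0.24. A missed threshold does not show that the levels were equal.

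The 3 members with the smallest p were LOC_Os04g52530, LOC_Os05g45180 and LOC_Os03g03760. LOC_Os04g52530 was higher in TAC4-KO by 1.64 on the log2 scale (SE 0.54, 95% interval 0.47 to 2.81, limma adjusted p = 0.11), and all 3 TAC4-KO libraries lay above all 3 TAC4L-KO libraries. LOC_Os05g45180 gave 1.52 (SE 0.51, interval 0.42 to 2.63, limma adjusted p = 0.12), again without overlap. LOC_Os03g03760 gave -1.14 (SE 0.44, interval -2.1 to -0.17, limma adjusted p = 0.17), with TAC4-KO replicate 1 among the TAC4L-KO values. Without TAC4L-KO replicate 3 the first 2 passed (2.2 and 1.94, limma adjusted p = 0.027 and 0.048), and without TAC4-KO replicate 1 LOC_Os01g70830 passed, toward lower (-2.36, limma adjusted p = 0.033). LOC_Os04g52530 and LOC_Os01g70830 no longer met the rule without the library whose removal let them pass, and LOC_Os05g45180 still did. The median over members also turned on single libraries. It was -0.31 without TAC4L-KO replicate 1 and -0.32 without TAC4-KO replicate 1, but 0.33 and 0.34 without TAC4L-KO or TAC4-KO replicate 2. The count over all genes, 584, became 92, 38 and 1360 without TAC4L-KO replicate 1, 2 or 3, 255 and 58 without TAC4-KO replicate 1 or 3, and 378 and 344 without double-KO replicate 1 or 2.

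The 68 genes that were high in all 3 mutants had a median of 0.77 for the same log2 difference, with 5 called higher in TAC4-KO, 0 called lower and 29 at an unadjusted p under 0.05. Their difference from the 49 members was not tested.

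Within each single mutant most members shared 1 extreme library. TAC4L-KO replicate 1 was the lowest of its group in 44 of 49 members, against 40.5% of all genes tested. TAC4-KO replicate 1 was the highest of its group in 41 members, against 34.7% of all genes. Both held in 40 members, against 20.3% of all genes. The opposite extremes were divided. The highest TAC4L-KO library was replicate 2 in 22 members and replicate 3 in 24 (27.8% and 39.3% of all genes). The lowest TAC4-KO library was replicate 2 in 32 and replicate 3 in 17 (36.8% and 29.8% of all genes). The members share their libraries, so these counts describe the libraries and carry no test. They are also not wholly free of the rule, since 1 high library helps a gene to reach the limit.

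In the fold over the WT mean, the median member stood at 2.25, 5.1 and 5.06 in TAC4L-KO replicates 1 to 3, at 7.21, 2.58 and 3.6 in TAC4-KO, and at 0.57, 0.709 and 0.479 in double-KO. Relative depth was 0.773, 0.912 and 1 in TAC4L-KO, and 1, 1 and 1.26 in TAC4-KO, so the TAC4L-KO library with the lowest members was the shallowest of its group and the TAC4-KO library with the highest members was no deeper than the others. The part of depth was not tested. The ratio of the highest to the lowest library had a median over members of 2.5 in TAC4L-KO, 3.15 in TAC4-KO, 2.03 in WT and 2.24 in double-KO. WT replicate 3 was the lowest WT library in 35 members, against 35.9% of all genes. Of the 68 genes high in all 3 mutants, TAC4L-KO replicate 1 was lowest in 58 and TAC4-KO replicate 1 highest in 42. In those genes TAC4L-KO replicate 3 was highest in 60 and TAC4-KO replicate 3 in 20, where the counts among the 49 members were 24 and 4. Their median fold over the WT mean was 2.27, 3.6 and 6.19 in TAC4L-KO replicates 1 to 3. These differences from the members were not tested.

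**Figure D4:**
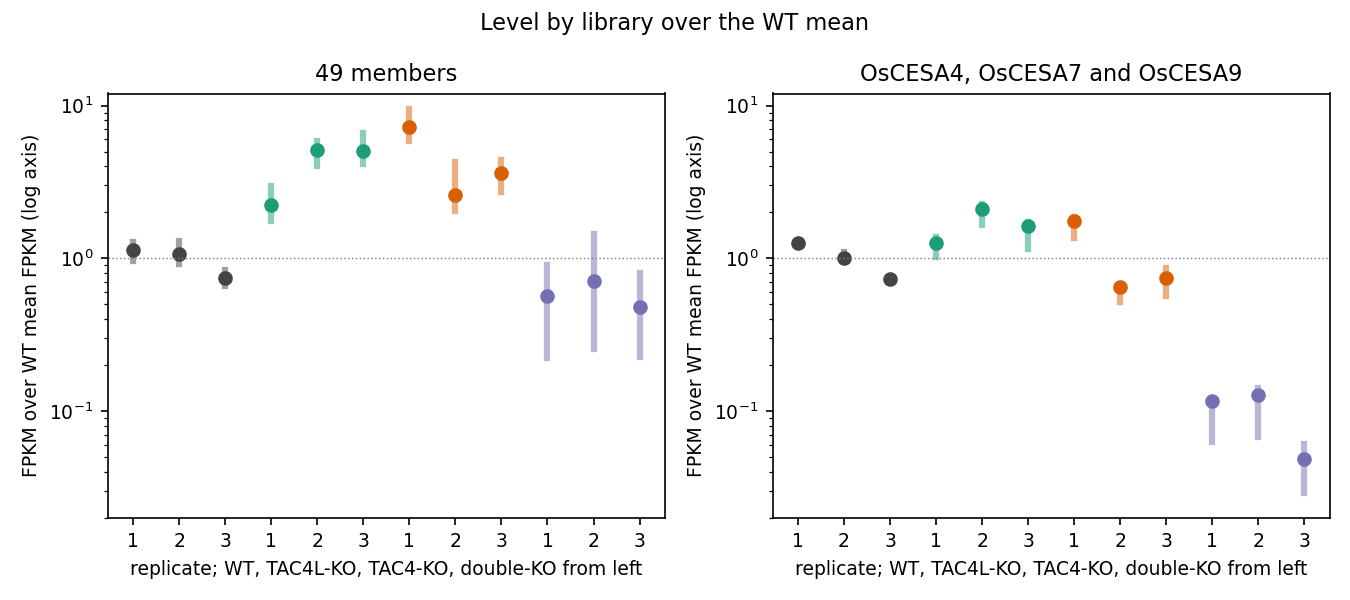
Level in each library over the WT mean, on a log axis, for the 49 members (left; point, median; bar, lower to upper quartile) and for OsCESA4, OsCESA7 and OsCESA9 (right; point, median; bar, lowest to highest). The members stand at 2.25 to 7.21 in the single-mutant libraries and at 0.479 to 0.709 in double-KO, and the cellulose synthases at 0.645 to 2.1 and at 0.0488 to 0.128.

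The number of members depended on single libraries. Without TAC4-KO replicate 1, 29 genes met the rule, all of them members, and 20 members were lost. Leaving out any other library gave 41 to 66 genes, of which 39 to 49 were members. Only 13 members met the rule whichever library was left out: LOC_Os12g02030, LOC_Os03g51150, LOC_Os01g62480, LOC_Os02g02310, LOC_Os10g37290, LOC_Os11g13870, LOC_Os03g39980, LOC_Os06g12820, LOC_Os06g03970, LOC_Os03g03760, LOC_Os09g29390, LOC_Os10g28700 and LOC_Os07g47430, a set named after its values were seen. Among these 13 the double-KO mean was at most 0.5 times the WT mean in 7. TAC4L-KO replicate 1 was the lowest of its group in 11 and TAC4-KO replicate 1 the highest in 10.

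**Figure D5:**
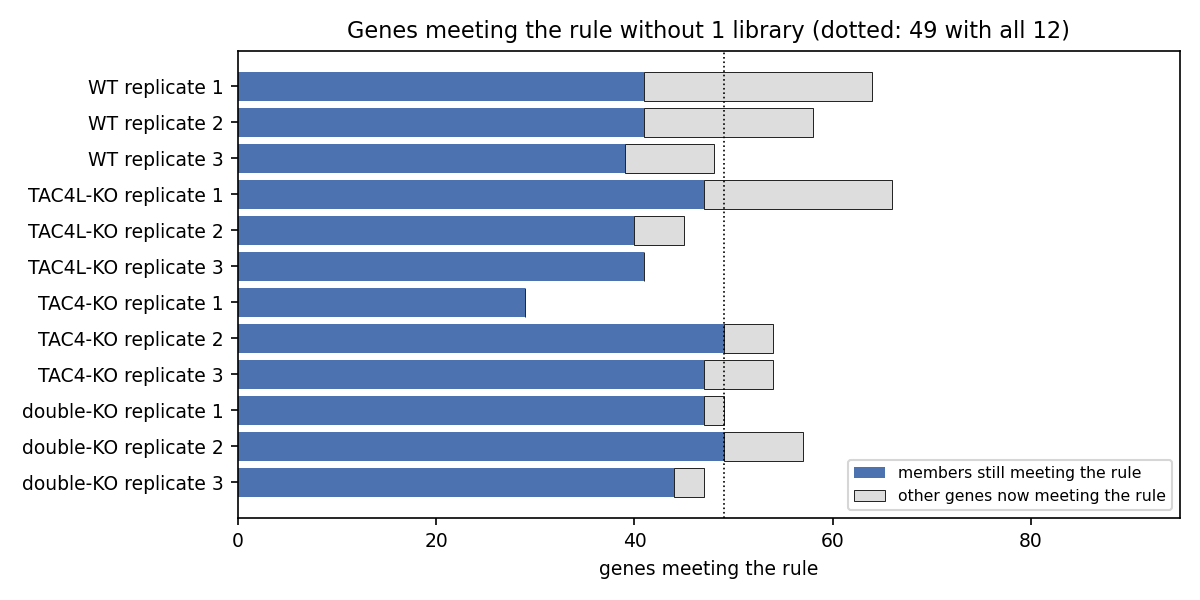
Number of genes meeting the rule when 1 library is left out (bars; blue, members among the 49; grey, other genes). The dotted line marks 49. The shortest bar is that without TAC4-KO replicate 1, at 29 genes, and the longest that without TAC4L-KO replicate 1, at 66.

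Each mutant library was also read in the genes that met the rule without it. The choice still used the WT mean and the other mutant libraries, so the shares over all genes are a background and not the value expected of such genes, and the counts are descriptions. The 29 genes chosen without TAC4-KO replicate 1 were at least 3 times the WT mean in that library in 28 cases, where 7.37% of all genes were, with a median of 7.34 times. Of 54 genes chosen without TAC4-KO replicate 2, 20 were at least 3 times WT in it (4.41% of all genes), and of 54 chosen without TAC4-KO replicate 3, 32 were (6.5% of all genes). The share was lowest in replicate 2.

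In TAC4L-KO, 35 of 45 genes chosen without replicate 2 were at least 3 times WT in it (2.32% of all genes) and 38 of 41 chosen without replicate 3 were (4.12%). For replicate 1 the count was 10 of 66, with a median of 2.01 times WT, against 0.907% of all genes. Most genes picked by the other libraries were thus under 3 times WT in TAC4L-KO replicate 1.

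For double-KO the limit is an upper one. In the left-out library, 43 of 49, 37 of 57 and 42 of 47 genes chosen without double-KO replicates 1, 2 and 3 were at most 1.5 times WT, beside 75.6%, 76% and 78.1% of all genes. The shares in the left-out library, 87.8%, 64.9% and 89.4%, lay above the background for replicates 1 and 3 and below it for replicate 2.

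The secondary wall cellulose synthases together form the complex that makes the cellulose of thickened walls. They shared with most members the lowest library of TAC4L-KO and the highest of TAC4-KO, as did 20.3% of all genes. In TAC4-KO replicates 2 and 3 their median stood below the WT mean, at 0.645 and 0.747 times. OsCESA4 (LOC_Os01g54620) stood at 338, 252 and 192 FPKM in WT, 358, 588 and 450 in TAC4L-KO, 487, 168 and 224 in TAC4-KO, with 30.4, 37.1 and 15.8 in double-KO. As in most members, TAC4L-KO replicate 1 was the lowest and TAC4-KO replicate 1 the highest library of its group, and WT replicate 3 the lowest. OsCESA7 (LOC_Os10g32980) and OsCESA9 (LOC_Os09g25490) had the same lowest and highest libraries in these 3 groups. They are not members, since their single-mutant means were less than 3 times WT. Their log2 differences from WT were 0.84, 0.36 and 0.74 in TAC4L-KO (limma adjusted p = 0.19, 0.57 and 0.27) and 0.06, -0.41 and -0.03 in TAC4-KO (limma adjusted p = 0.93, 0.44 and 0.96), in the order OsCESA4, OsCESA7 and OsCESA9. In double-KO they fell by 3.23, 4.19 and 3.37 on the log2 scale (limma adjusted p = 0.00011, 2.6e-05 and 0.00012).

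Over 5 lists of wall genes (secondary and primary wall cellulose synthases, secondary wall regulators, other brittle culm genes and lignin synthesis) 38 of 41 genes were tested. In TAC4L-KO against WT, 2 were called higher and 0 lower, with 7.18% of all genes called, 3.68% higher and 3.5% lower. In TAC4-KO 14 were higher and 3 lower, with 34.9% of all genes called, 18.4% and 16.5%. In double-KO 9 were higher and 12 lower, with 47.4% of all genes called, 20.1% and 27.3%. The 5 primary wall cellulose synthases, which make the cellulose of growing walls, held 1, 3 and 3 of the higher calls in TAC4L-KO, TAC4-KO and double-KO and 0 of the lower, with median log2 differences from WT of 0.81, 1.24 and 1.01 beside 0.1, 0.04 and -0.1 for all genes. Of the 19 lignin synthesis genes tested, 0, 6 and 5 were higher and 0, 2 and 6 lower in the same order, with medians of 0.05, 0.47 and -0.41. The TAC4L-KO count of 2 became 8 without TAC4L-KO replicate 1, 0 without replicate 2, and 1 without TAC4L-KO replicate 3, WT replicate 1 or WT replicate 3. The TAC4-KO count of 17 became 9 without TAC4-KO replicate 3.

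Of the 4 genes in the list of cell division and meristem markers, some ran against the members within the single mutants and some did not. PCNA (LOC_Os02g56130), the sliding clamp of DNA replication, stood at 10.9, 12 and 24.6 FPKM in WT, 15.8, 11.5 and 8.8 in TAC4L-KO, 6.26, 11.6 and 10 in TAC4-KO, with 19, 19.8 and 19.8 in double-KO. It was highest in TAC4L-KO replicate 1 and lowest in TAC4-KO replicate 1, the libraries where the members were lowest and highest. CDKB2 (LOC_Os08g40170), a kinase of the cell division cycle, stood at 2.97, 3.35 and 3 FPKM in WT, 4.22, 2.2 and 1.78 in TAC4L-KO, 1.83, 4.06 and 2.86 in TAC4-KO, with 3.23, 2.42 and 2.86 in double-KO. It likewise was highest in TAC4L-KO replicate 1 and lowest in TAC4-KO replicate 1. The homeobox gene OSH1 (LOC_Os03g51690), a marker of the stem meristem, had the order of the members in these extremes, at 26.9, 27.5 and 27.8 FPKM in TAC4L-KO and 38.6, 31 and 30.2 in TAC4-KO. Its relative OSH15 (LOC_Os07g03770) stood at 304, 187 and 189 FPKM in TAC4L-KO, highest in replicate 1, and at 196, 205 and 185 in TAC4-KO, where replicate 1 was neither highest nor lowest. The 4 genes of this list summed to 229 to 307 FPKM in WT, 227 to 350 in TAC4L-KO, 228 to 252 in TAC4-KO, with 132 to 189 in double-KO. Most of each sum was OSH15, which averaged 220 FPKM in WT and 123 in double-KO. OSH15 alone of the 4 was called in double-KO against WT (log2 difference -0.83, limma adjusted p = 0.014), where 47.4% of all genes were called. The part of these levels in the members' pattern was not tested.

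Markers of green tissue and of flowers were summed in the same way. The 15 light-harvesting and Rubisco small subunit genes, all with a mean of at least 1 FPKM, summed to 3920 to 8393 FPKM in WT, 6506 to 6941 in TAC4L-KO, 12355 to 15293 in TAC4-KO, with 7678 to 9584 in double-KO. A Rubisco gene, LOC_Os12g19381, weighed heavily in these sums, with means of 5397, 4708, 3766 and 2637 FPKM in the same order. So did a listed light-harvesting gene, LOC_Os01g52240, in TAC4-KO and double-KO, with means of 159, 342, 4997 and 3193 FPKM. Against WT, 14 of the 15 were called higher and 0 lower in TAC4-KO (18.4% and 16.5% of all genes). In double-KO 9 were higher and 1 lower (20.1% and 27.3%). Every TAC4-KO sum lay above every TAC4L-KO sum. Of the 10 floral organ genes, 9 had a mean under 1 FPKM, and the list summed to 18.7 to 35.1 FPKM in WT, 26 to 31.2 in TAC4L-KO, 32.2 to 38.3 in TAC4-KO, with 78.6 to 112 in double-KO. Most of each floral sum was the remaining gene, MADS16 (LOC_Os06g49840), with means of 26.6, 27.6, 33.3 and 96.5 FPKM in the same order. The floral sums thus describe MADS16 and not the list. The part of the green and floral markers in the members' pattern was not tested.

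The members were spread over all 12 chromosomes. Chromosomes 1 and 4 held 7 each, which was 14.3% of members beside 14.2% and 8.49% of tested genes, and no chromosome held fewer than 2. The closest pair by identifier was LOC_Os11g25220 and LOC_Os11g25230 on chromosome 11, whose numbers differ by 10. LOC_Os11g25220 stood at 12.6, 12.6 and 11.2 FPKM in WT, 15, 66 and 102 in TAC4L-KO, 13.8 to 92.1 in TAC4-KO, with 2.97 to 8.47 in double-KO. LOC_Os11g25230 stood at 11.7, 11 and 8.28 FPKM in WT, 10.5, 55.9 and 92.7 in TAC4L-KO, 20 to 91.1 in TAC4-KO, with 2.4 to 3 in double-KO. The order of their libraries was the same in TAC4L-KO and TAC4-KO. In double-KO it was not, with replicate 3 the highest for the first (8.47 FPKM) and the lowest for the second (2.4 FPKM). Without sequence or strand information reads shared between them cannot be told apart.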

How the data were processed

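The deposited table held FPKM values made by the authors, 1 column per library, for 12 libraries in 4 groups of 3. HISAT2 is named among the tools per the submitters' processing notes, which state no version. Not given in the sources used here were the build, gene models, strandedness and quantification tool. No read counts were used, so depth is known only as a ratio between libraries, taken as the commonest ratio of values among genes above 0 in at most 6 libraries, and no detection floor is given.

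Members were found from group means as stated. The 19184 genes averaging 1 FPKM or more were fitted together on log2(FPKM + 1), which understates the change of low genes, with limma 3.58.1 (R 4.3.3), a trended prior and Benjamini-Hochberg adjustment over all of them; calls used an adjusted p under 0.05. Simulated data with known changes were used to test the fit. With 3 libraries against 3, an exact permutation test cannot go below p = 0.1, so none was run. The members, lists and tests were chosen with earlier results of these data known. The rule for naming took the 8 members with the highest single-mutant level, the 8 with the largest smaller-of-2 ratio to WT (WT mean of at least 0.5 FPKM), up to 4 called in each direction between the single mutants (none were) and the 3 genes on each side of each limit; other members named, and the use of a left-out library, were chosen after their values were seen. Other scalings, filters, pseudocounts, limits, a replicate block and leaving out each library were tried.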

Additional observations from a re-analysis of the deposited data

How the results depend on the processing

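The number of members was 49 as reported, 38 under median-of-ratios scaling (all of them members) and 40 under quantile normalization (38 of them members). It became 207 with a limit of 2-fold, 23 with 4-fold, 79 with a minimum of 1 FPKM and 13 when a gene had to meet the rule without any 1 library (the last chosen after seeing the data). Group medians gave 51 genes, of which 31 were members. Without 1 library it ranged from 29 to 66. In TAC4-KO against TAC4L-KO, the 584 calls over all genes became 249 with no filter, 88 with the 6 single-mutant libraries alone, and 38 to 1360 without 1 library. The number of members called was 0 under all 8 settings that kept all the libraries of the single mutants and changed the scaling, filter, pseudocount, trend, block or groups fitted, and 0 to 2 without 1 library.

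The labels name no pairing of samples by replicate number, and the values cannot settle it. Correlations of same-numbered deviations between TAC4L-KO and TAC4-KO were -0.43, 0.01 and 0.27, and not every library correlated best with its own number. Deviations from a mean of 3 libraries are tied to each other, so these correlations cannot exclude a pairing. A replicate block gave 394 calls over all genes and 0 members, and 1 wall gene called in TAC4L-KO against WT in place of 2; quantile normalization gave 4. Without 1 library the wall genes called numbered 0 to 8 in TAC4L-KO, 9 to 20 in TAC4-KO and 16 to 22 in double-KO. The TAC4-KO differences of OsCESA4 and OsCESA9 (LOC_Os01g54620 and LOC_Os09g25490), which were not called, changed sign without some libraries, ranging from -0.39 to 0.38 and from -0.48 to 0.24. The cause was not tested. The double-KO falls of OsCESA4, OsCESA7 and OsCESA9 kept their direction and call under each alternative run. The unknown number of fragments limits how far values under 1 FPKM can be read.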
